A study of Mus musculus with 4 samples.

Results

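The complement and coagulation cascades are chains of plasma and cell-surface proteases, cofactors, inhibitors and receptors, and the transcripts described here are those of the pathway that the mouse trigeminal ganglion held above a low limit. Members were the gene rows that the authors' annotation column places in KEGG's complement and coagulation pathway and that had a mean of at least 1 TPM over all libraries. TPM is a transcript abundance corrected for transcript length, and its total is fixed for each library. The rule found 48 members among 115 rows of the pathway and 56035 rows of the table, and it used the mean over all 4 libraries and no difference between genotypes.

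The ganglia came from male C57BL/6 mice aged 8 weeks. The K823R group, 2 libraries, carried a knock-in of Trpv1, the gene of a heat- and capsaicin-gated cation channel of pain- and itch-sensing neurons, in which a lysine codon is replaced by an arginine codon, and its genotype label reads TRPV1 K823R transgenic. The WT group, 2 libraries, was littermates without the change. The labels name no Cre, drug or other allele, mention 2 pairs of ganglia without tying them to libraries, and do not say how many animals each library holds. Each p below rests on the spread among these libraries alone, part or all of which may be technical. It is not the spread of that gene only, since limma, the test used, moves it toward the spread of other genes.

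Complement is started by recognition proteins such as C1q, bound to antibody, cell debris or synapses, or by lectins bound to sugars, and all routes meet at the cleavage of C3. Host cells are protected by membrane and plasma regulators, and phagocytes read the deposited fragments through receptors. Coagulation starts when tissue factor meets plasma factors, ends in fibrin, is held back by serpins and the protein C system, and is undone by plasmin. Thrombin and bradykinin, products of these cascades, also act on receptors of sensory neurons and glia. Liver makes most of the plasma proteins, while macrophages, endothelium, glia and neurons make a part of the list locally.

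Sequences of 2 kinds are shown first, since the results refer back to them. The first set is the stretch of each Serpina1 copy, the mouse genes of alpha-1-antitrypsin, that encodes the reactive centre loop, the bait for the target protease. The copies differ more in this loop than over the whole coding sequence. Short reads from stretches that copies share can fit several of them, and how many reads do so was not measured. The windows were read from GENCODE M21 transcripts on GRCm38, each lies in the last coding exon on the minus strand of chromosome 12, and capitals mark the 17 of 72 positions at which the 5 copies differ.

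Serpina1a: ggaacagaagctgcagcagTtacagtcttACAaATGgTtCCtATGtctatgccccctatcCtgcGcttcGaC
Serpina1b: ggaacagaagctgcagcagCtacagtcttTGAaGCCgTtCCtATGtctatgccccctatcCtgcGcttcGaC
Serpina1c: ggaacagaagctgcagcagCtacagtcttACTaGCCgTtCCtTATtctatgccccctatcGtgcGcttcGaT
Serpina1d: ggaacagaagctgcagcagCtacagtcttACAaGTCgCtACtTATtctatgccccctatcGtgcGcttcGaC
Serpina1e: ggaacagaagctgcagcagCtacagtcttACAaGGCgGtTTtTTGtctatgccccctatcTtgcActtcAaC

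The windows lie at chr12:103853759-103853830 (Serpina1a), chr12:103728326-103728397 (Serpina1b), chr12:103895096-103895167 (Serpina1c), chr12:103763764-103763835 (Serpina1d) and chr12:103947102-103947173 (Serpina1e). Over the whole coding sequence of 1239 bases the copies were 96.3% to 98.5% identical in pairs, and over the loop window 84.7% to 93.1%.

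The second set is the promoters of C1qb and C1qc, neighbours on chromosome 4 whose transcripts were both highest in K823R replicate 2 and lowest in WT replicate 1. C1qa, their neighbour, had the same highest and lowest library, but no promoter sequence of it was at hand. The printed promoters are RefSeq sequences on GRCm38.p6, minus strand, from 250 bases before to 50 bases after the start used there. The gene positions given further below are from GENCODE, whose starts differ. GENCODE places the start of C1qc at 136893065, so distances within that window depend on the annotation. Capitals mark GAGGAA on either strand, the core of the motif bound by PU.1, a transcription factor of macrophages.

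C1qb: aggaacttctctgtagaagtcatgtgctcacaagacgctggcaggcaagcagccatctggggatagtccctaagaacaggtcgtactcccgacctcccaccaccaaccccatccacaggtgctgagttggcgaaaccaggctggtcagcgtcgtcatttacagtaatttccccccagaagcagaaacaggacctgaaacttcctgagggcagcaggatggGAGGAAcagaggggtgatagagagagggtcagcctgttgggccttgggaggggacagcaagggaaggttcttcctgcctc
C1qc: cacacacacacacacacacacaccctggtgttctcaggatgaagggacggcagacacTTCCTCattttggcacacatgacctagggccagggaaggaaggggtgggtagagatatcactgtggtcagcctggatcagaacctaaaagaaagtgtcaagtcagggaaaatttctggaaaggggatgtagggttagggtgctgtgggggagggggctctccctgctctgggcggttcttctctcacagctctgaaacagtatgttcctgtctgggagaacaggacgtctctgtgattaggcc

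The C1qb window is chr4:136886151-136886450 and the C1qc window chr4:136892865-136893164. Each holds the core at 1 place. Of 32851 promoters of this length 28.3% hold GAGGAA on either strand. Of the 33 members with a promoter there, 10 hold it in at least 1 of their promoters (30.3%). The first share is per promoter and the second per gene, and a gene can have more than 1 promoter. The shares are therefore not on the same footing, here and for the next motif. The STAT-type motif TTCNNNGAA, which reads the same on both strands, was in 8.30% of all promoters and in those of 5 of the 33 members (15.2%), C1ra, F9, Fga, Pros1 and Vtn. The C1ra promoter holds both motifs, without overlap. A match is a run of letters and not a shown binding site.

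No member passed the test between genotypes. With limma on log2(TPM + 1) over 15390 rows, Benjamini-Hochberg adjusted over all of them, 0 of 48 members had an adjusted p below 0.05, against 0.0065% of all rows, and the members' adjusted p ran from 0.918 to 0.999. At an unadjusted limma p below 0.05 stood 5 members (10.4%), against 4.76% of all rows, and all 5 had their higher mean in K823R, a direction held by 2.57% of all rows at that p, while 2.19% of all rows and no member were lower. They were F2r, Serpind1, C1qc, Serping1 and C1qa. The count was 3 of 48 without WT replicate 1, against 7.22% of all rows in that fit. It was also 3 without K823R replicate 1 or K823R replicate 2, against 3.73% and 3.79% of all rows, and it was 6 without WT replicate 2, against 6.02%. The groups did not overlap for 16 members (33.3%), against 34.0% of all rows. In 15 of them K823R was the higher group (31.2%), against 19.4% of all rows, and in 1, F8, the lower (2.08%), against 14.6%. The log2 difference was above 0 for 38 of 48 members (79.2%), against 57.4% of all rows, and its median was 0.15 against 0.03 over all rows. That count of 38 was 31 after quantile normalization, when 49.2% of all rows were above 0. It was 34 after median-ratio scaling, when 52.1% of all rows were above 0. These counts describe the list and are no test of it.

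**Figure D1:**
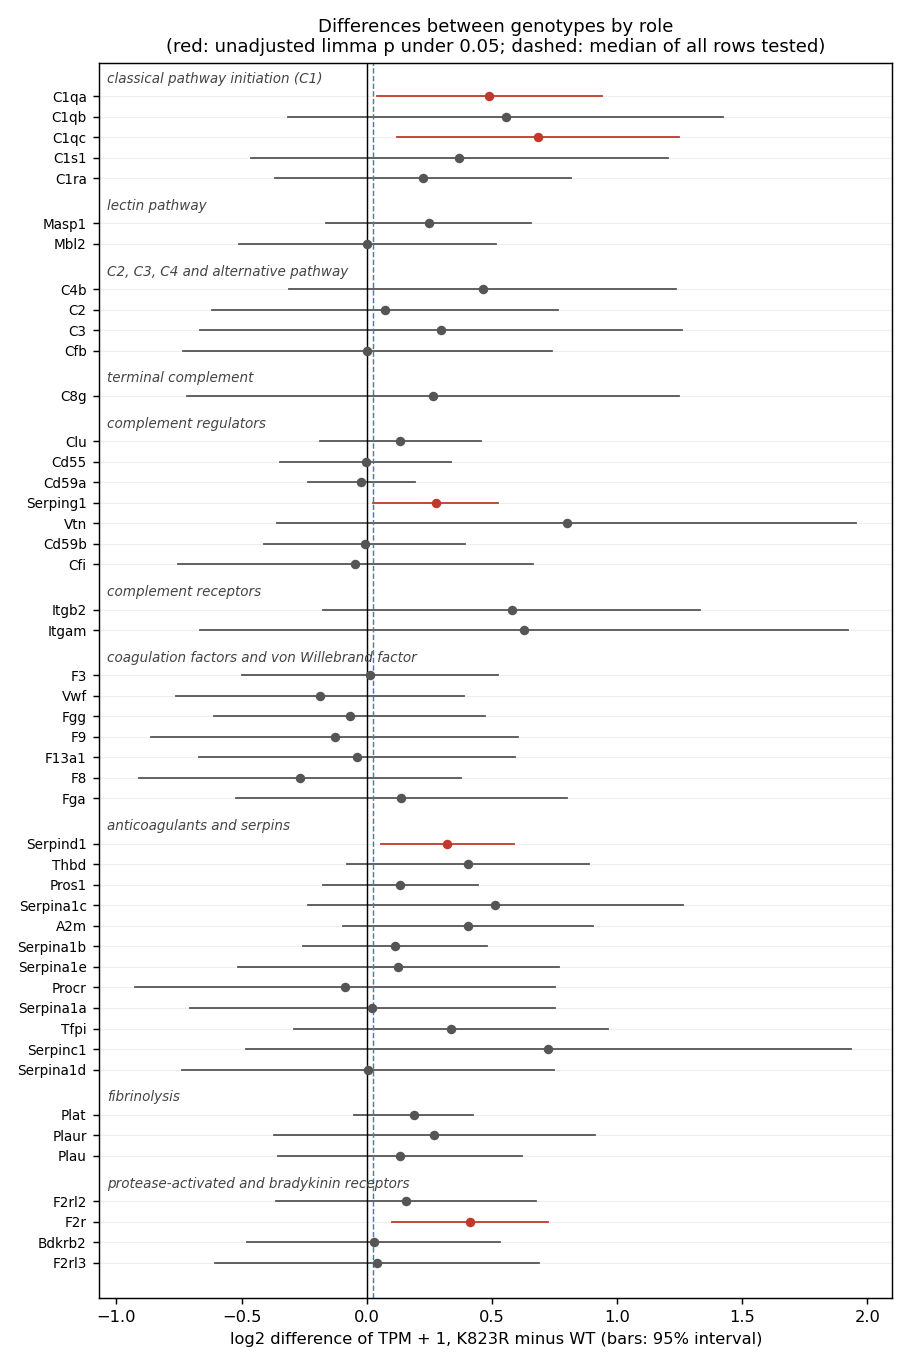
Log2 difference of TPM + 1, K823R minus WT, on the x axis for 47 of the 48 members, grouped by role on the y axis, with points for the estimate and bars for limma's 95% interval. Red marks the 5 members with an unadjusted p under 0.05, of which none had an adjusted p below 0.918, and the dashed line is the median of all rows tested, 0.03.

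Precision set a limit on what could be seen. The 15 members of at least 10 TPM had a median standard error (SE) of 0.17 and a median 95% half-width of 0.45 on the log2 scale. The 33 members between 1 and 10 TPM had 0.25 and 0.65. TPM keeps no read total, so depth behind a value is unknown, and in bulk tissue fewer cells of a type and less RNA per cell cannot be told apart.

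The libraries differed in their makeup in ways that touch these values. The 7 central glia markers summed to 240 and 291 TPM in K823R, against 10.6 and 202 TPM in WT. All 7 were lowest in WT replicate 1, where Mog and Opalin were listed at 0. That library further had the lowest sums of macrophage, fibroblast, endothelial, pericyte, satellite glia, myelinating Schwann cell and platelet markers, and the highest sums of red cell, neutrophil and monocyte, sensory neuron and liver markers. Red cell markers summed to 319 and 334 TPM in K823R, against 492 and 245 TPM in WT. WT replicate 1 was the lowest library for 21 of the 48 members (43.8%), against 22.2% of all rows. K823R replicate 2 was the highest for 21 members (43.8%), against 19.3% of all rows. The part of tissue makeup in the differences below was not tested. Trpv1 itself, whose codon change TPM cannot show, stood at 40.9 and 35.0 TPM in K823R and 39.2 and 30.6 TPM in WT, with overlapping groups.

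Levels across the pathway spanned from 1.06 to 466 TPM and were led by proteins that protect cells from complement. The 8 complement regulators held 76.8% and 73.3% of the members' summed TPM in K823R and 78.8% and 76.3% in WT. The 48 members summed to 1467 and 1382 TPM in K823R and 1350.3 and 1212 TPM in WT. Of the members, 15 averaged at least 10 TPM, of which 4 were over 100 TPM (Clu, Cd55, Cd59a and Serping1), and 9 lay under 2 TPM. Just inside the limit stood Fga, Cfi and Cfb at means of 1.06, 1.11 and 1.13 TPM, and just outside it Kng1, F2 and C3ar1 at 0.915, 0.895 and 0.743 TPM.

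**Figure D2:**
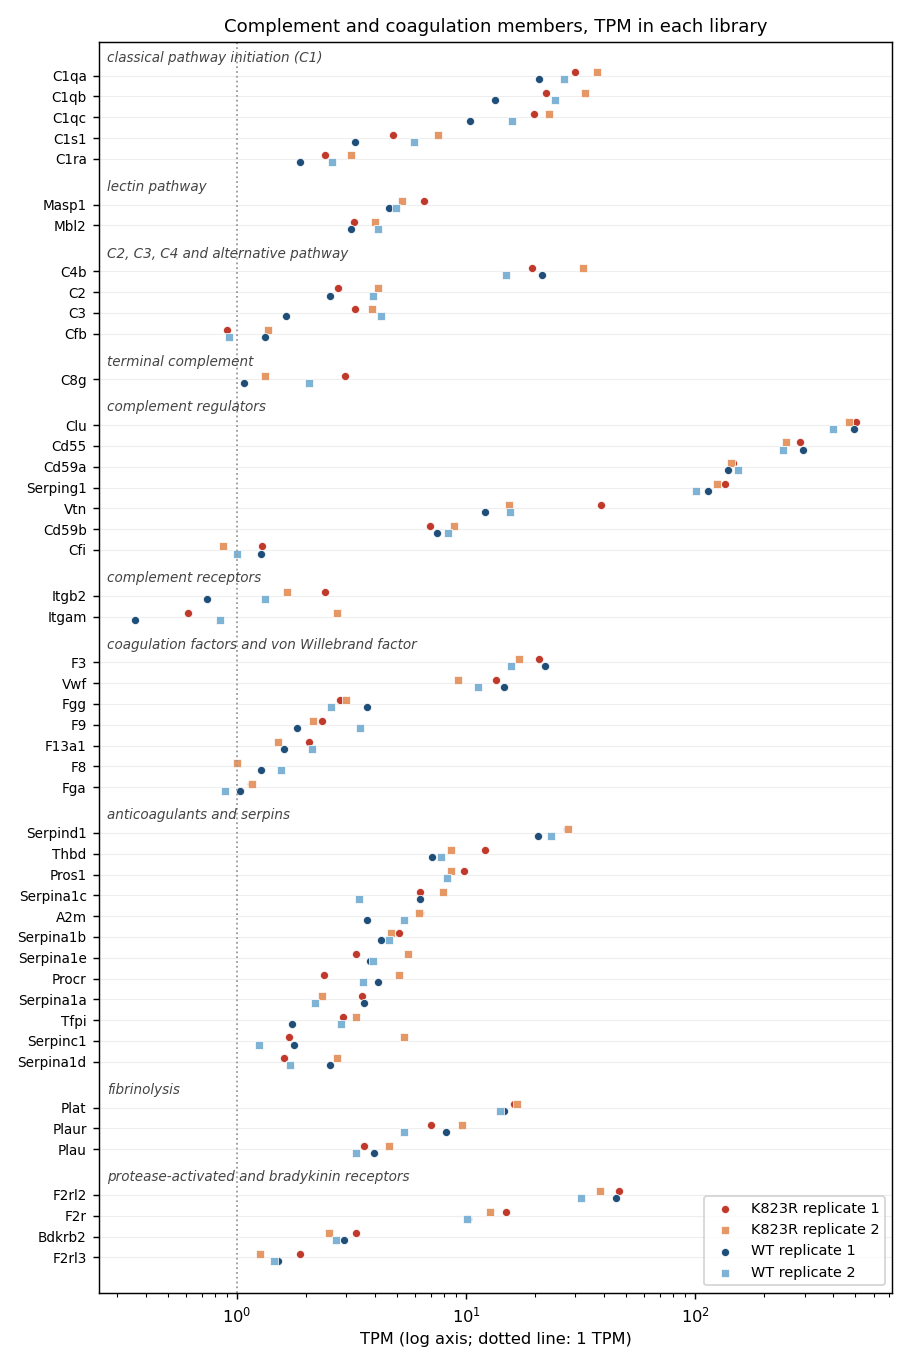
TPM on a log x axis for 47 of the 48 members in each of the 4 libraries, grouped by role and ordered by mean within a role. The regulators Clu, Cd55, Cd59a and Serping1 stand at the right, at means of 118 to 466 TPM, and for most members the K823R symbols (red and orange) overlap with the WT symbols (blue shades).

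Transcripts of C1, the complex that opens the classical pathway, had their higher mean in K823R for 5 of 5 members. Over all rows the log2 difference was above 0 for 57.4%. The median log2 difference of these 5 was 0.49, against 0.03 over all rows, but 0.15 without WT replicate 1 and 0.29 without K823R replicate 2. C1q, the recognition part, is built from chains A, B and C. C1qa (chromosome 4, 136895917 to 136898803) had 29.9 and 37.4 TPM in K823R and 20.8 and 26.7 TPM in WT. C1qc (chromosome 4, 136889804 to 136893065) had 19.9 and 22.9 TPM in K823R and 10.4 and 15.9 TPM in WT. For both chains the groups did not overlap, and WT replicate 1 was the lowest library. C1qb (chromosome 4, 136880129 to 136886187) had 22.3 and 32.9 TPM in K823R and 13.4 and 24.4 TPM in WT. Here WT replicate 2 lay above K823R replicate 1, so the groups overlapped. The log2 difference was 0.49 for C1qa (SE 0.17, unadjusted p = 0.0386), 0.68 for C1qc (SE 0.21, unadjusted p = 0.0268) and 0.55 for C1qb (SE 0.33, unadjusted p = 0.158), all with a limma adjusted p of 0.918. Without WT replicate 1 the differences of C1qa, C1qc and C1qb were 0.32, 0.40 and 0.15, and without K823R replicate 2 they were 0.33, 0.59 and 0.29.

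The proteases of C1 were scarcer. C1s1, which cleaves C4 and C2, had 4.78 and 7.52 TPM in K823R and 3.28 and 5.90 TPM in WT. C1ra, which activates C1s, had 2.42 and 3.15 TPM in K823R and 1.88 and 2.61 TPM in WT. The groups overlapped for both, and in each group replicate 2 was the higher. The duplicate copies C1rb, listed at 0 in all libraries, and C1s2, at most 0.03 TPM, match 81.6% of the C1ra transcript and 89.7% of the C1s1 transcript at 95% identity or more.

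C1q is largely a product of macrophages, and their markers are given beside it. All 10 macrophage markers listed were above 1 TPM on average, 8 of 10 had their higher mean in K823R (median log2 difference 0.39), and none was at 0. Their sum was 107 and 137 TPM in K823R and 80.1 and 120 TPM in WT, so the groups overlapped for the markers. The 3 C1q chains summed to 72.1 and 93.2 TPM in K823R and 44.6 and 67.0 TPM in WT. Per marker sum, a ratio computed after the values were seen, C1q stood at 0.673 and 0.681 in K823R and 0.557 and 0.560 in WT. With the abundant lysozyme gene Lyz2 left out of the markers the ratio was 1.56 and 1.52 in K823R and 1.30 and 1.22 in WT. In both forms the groups did not overlap, but the order of the libraries depends on the markers chosen. Tyrobp, the most abundant marker after Lyz2, had 14.9 and 17.8 TPM in K823R and 15.0 and 20.1 TPM in WT. Csf1r had 6.35 and 8.56 TPM in K823R and 2.99 and 7.69 TPM in WT, so C1q per Csf1r alone was highest in WT replicate 1. These ratios are a description, and the part of macrophage content in the C1q differences was not tested.

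**Figure D3:**
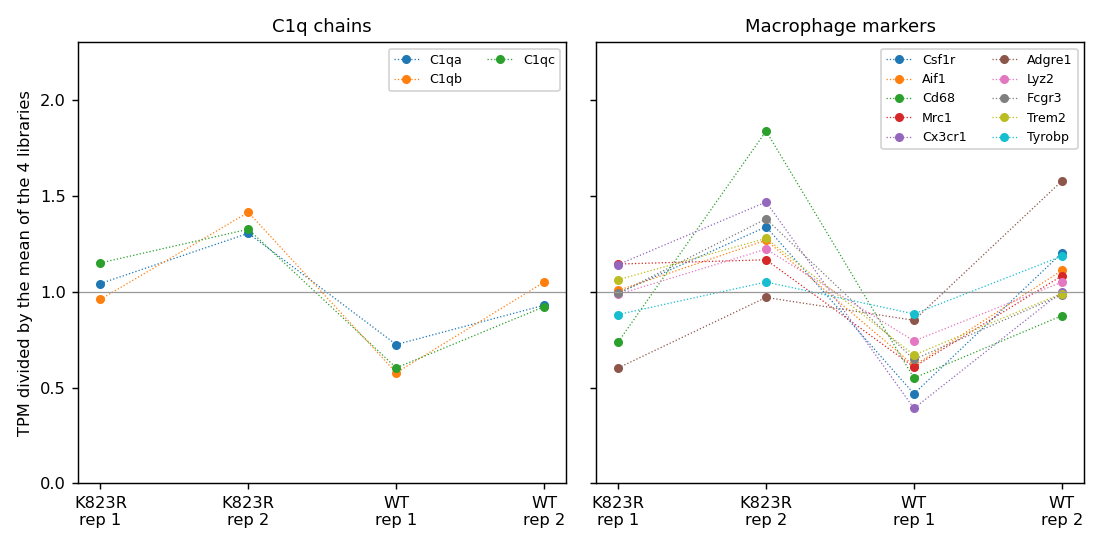
TPM divided by the gene's mean over the 4 libraries on the y axis, for the 3 C1q chains at left and 10 macrophage markers at right, with 1 colour per gene and dotted lines joining the points of 1 gene. C1q chains and 8 of the 10 markers are lowest in WT replicate 1 while Adgre1 and Tyrobp are lowest in K823R replicate 1.

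Components downstream of C1 were led by C4b (chromosome 17, 34728380 to 34743882), the fourth component, which is cleaved to tag surfaces. C4b had 19.4 and 32.3 TPM in K823R and 21.5 and 14.9 TPM in WT, so K823R replicate 1 lay below WT replicate 1. Its log2 difference was 0.46 (SE 0.29, limma adjusted p = 0.918), and 0.11 without K823R replicate 2. C4a, a copy that matches C4b over the full transcript at 96.0% identity, took 4.76% and 0.154% of the summed C4 TPM in K823R and 1.33% and 0.400% in WT. Reads that fit both copies cannot be told apart in these values. With the copies summed the log2 difference was 0.49 (SE 0.28).

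C3, on which all routes meet, was low at 3.27 and 3.87 TPM in K823R and 1.63 and 4.23 TPM in WT. Its log2 difference was 0.30 (SE 0.37, limma adjusted p = 0.938), and -0.20 without WT replicate 1, which alone lay under the rest. C2, the partner of C4 in the C3-cleaving enzyme, had 2.76 and 4.13 TPM in K823R and 2.55 and 3.91 TPM in WT. Cfb, its counterpart in the alternative pathway, averaged 1.13 TPM over all libraries, with overlapping groups. A read-through gene of C2 and Cfb, Gm20547, covers 62.5% of the C2 transcript and 81.7% of the Cfb transcript at 95% identity or more and averaged 0.125 TPM. Factor D, Cfd, the protease that activates factor B, was listed at 0 in all 4 libraries.

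The lectin route was present at low level. Masp1, a protease of mannose-binding lectin, had 6.53 and 5.24 TPM in K823R and 4.60 and 4.96 TPM in WT, without overlap. Mbl2, a mannose-binding lectin, had 3.25 and 3.99 TPM in K823R and 3.13 and 4.12 TPM in WT, with overlap. Masp1 overlaps Rtp4 on the opposite strand, at 10.02 TPM on average, and whether counting used the strand is not stated in the labels. Rtp4 had 9.30 and 14.5 TPM in K823R and 7.98 and 8.26 TPM in WT, without overlap. The part of Rtp4 in the Masp1 values was not tested.

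The pore-forming terminal components were nearly absent from the list. Only C8g, the gamma chain of C8, passed the limit, at 2.96 and 1.32 TPM in K823R and 1.07 and 2.07 TPM in WT. It overlaps Fbxw5, at 65.1 TPM on average, on the opposite strand. The pore components C9, Hc (the mouse C5 gene), C7, C8b, C8a and C6 averaged 0.418, 0.410, 0.215, 0.170, 0.110 and 0.095 TPM.

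Among the regulators, the 3 most abundant overlapped between the genotypes. Clu, clusterin, a chaperone that blocks terminal assembly, had 505 and 468 TPM in K823R and 493 and 398 TPM in WT. Cd55, decay-accelerating factor, which dismantles C3-cleaving enzymes on cells, had 286 and 248 TPM in K823R and 295 and 242 TPM in WT. Cd59a, which blocks the pore on cells, had 146 and 143 TPM in K823R and 139 and 154 TPM in WT. The log2 difference of Clu was 0.13 with a 95% interval of -0.19 to 0.45, and that of Cd59a was -0.02 with an interval of -0.23 to 0.19. The limma adjusted p was 0.925 for Clu and 0.986 for Cd59a.

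Serping1, the C1 inhibitor, which also restrains kallikrein and so bradykinin release, was the fourth most abundant member (chromosome 2, 84765387 to 84775444). It had 135 and 124 TPM in K823R and 113 and 101 TPM in WT, with no overlap between groups. The log2 difference was 0.28 with SE 0.10 and a 95% interval of 0.02 to 0.53 (limma unadjusted p = 0.0371, adjusted p = 0.918). It was 0.19 without WT replicate 2 and 0.36 without WT replicate 1.

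Cd59b, the second mouse Cd59 gene, had 6.96 and 8.83 TPM in K823R and 7.49 and 8.31 TPM in WT, and Cd59a exceeded it 16.2 to 20.9 times. Vtn, vitronectin, a plasma and matrix protein, was singled out after its values were seen, at 38.7 and 15.4 TPM in K823R and 12.03 and 15.6 TPM in WT. K823R replicate 1 stood alone there. All 9 fibroblast and meninges markers listed had the higher mean in K823R, none was at 0, and they summed to 2851 and 912 TPM in K823R and 351 and 1083 TPM in WT. K823R replicate 1 stood apart in that sum as well, through Ptgds at 2374 TPM, and the part of these markers in the Vtn values was not tested. Cfi, factor I, a protease that inactivates deposited C3, averaged 1.11 TPM.

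The receptors that read complement on phagocytes were near the limit. Itgb2, the shared beta chain of leukocyte integrins, had 2.41 and 1.65 TPM in K823R and 0.74 and 1.33 TPM in WT, without overlap (log2 difference 0.58, SE 0.29, limma adjusted p = 0.918). Adding 0.1 TPM in place of 1 TPM gave 0.94, and leaving out WT replicate 1 gave 0.37. Itgam, the alpha chain of complement receptor CR3, had 0.61 and 2.72 TPM in K823R and 0.36 and 0.84 TPM in WT, with overlap. A predicted gene, Gm49368, matches 73.8% of the Itgam transcript at 95% identity or more. The mean of Itgam exceeded 1 TPM in K823R alone, as did that of Fga, so these members passed the limit through the K823R values. C3ar1 and C5ar1, receptors of the small fragments of C3 and C5, averaged 0.743 and 0.543 TPM.

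Coagulation factors were spread to both sides of 0. Of 7 members 2 had the higher mean in K823R and 5 the lower, with a median log2 difference of -0.07, which was 0.06 without K823R replicate 2. F3, tissue factor, the cellular trigger of clotting, had 20.7 and 17.1 TPM in K823R and 22.1 and 15.7 TPM in WT. Its log2 difference was 0.01 (SE 0.20) and turned negative under quantile and median-ratio scaling. Vwf, von Willebrand factor, made by endothelium, had 13.5 and 9.23 TPM in K823R and 14.6 and 11.3 TPM in WT, with a difference of -0.19 (SE 0.22). The 8 endothelial markers summed to 109 and 102 TPM in K823R and 85.0 and 103 TPM in WT. Vwf was highest in WT replicate 1, where that sum was lowest. Cldn5 alone gave 52.45 and 45.28 TPM of the sum in K823R and 37.07 and 49.59 TPM in WT. The part of endothelial content in the Vwf values was not tested.

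F8, the cofactor of factor IX, was the member in which K823R was lower without overlap. It had 1.00 and 1.00 TPM in K823R and 1.27 and 1.55 TPM in WT (log2 difference -0.27, SE 0.24, limma adjusted p = 0.925). F8 overlaps Fundc2, at 28.2 TPM on average, on the opposite strand. F9, factor IX, had 2.35 and 2.14 TPM in K823R and 1.83 and 3.44 TPM in WT, inside the WT range, with a difference of -0.13 (SE 0.28). Fgg, the gamma chain of fibrinogen, had 2.82 and 2.99 TPM in K823R and 3.68 and 2.58 TPM in WT, also inside the WT range, with a difference of -0.07 (SE 0.21). F13a1, the fibrin cross-linking enzyme, and Fga, the alpha chain of fibrinogen, averaged 1.83 and 1.06 TPM.

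Anticoagulants and serpins were the largest role group, and 11 of 12 members had the higher mean in K823R. Over all rows the log2 difference was above 0 for 57.4%. The 11 include every Serpina1 copy, and these near-identical genes are not independent of each other. Of the copies, Serpina1a and Serpina1d had log2 differences of only 0.02 and 0.007. The median log2 difference of the 12 was 0.23. Of the 12, 7 were higher in K823R without overlap, against 19.4% of all rows, and 2 of these 7 are Serpina1 copies, whose family sum overlapped. Serpind1, heparin cofactor II, a thrombin inhibitor (chromosome 16, 17331371 to 17343575), had 27.6 and 28.0 TPM in K823R and 20.6 and 23.5 TPM in WT. The groups did not overlap, and the K823R pair differed by less than 1 TPM. The log2 difference was 0.32 with SE 0.10 (limma unadjusted p = 0.0262, adjusted p = 0.918), and 0.23 without WT replicate 1. Serpind1 overlaps Pi4ka, a lipid kinase gene on the opposite strand, which had 105 and 92.1 TPM in K823R and 104 and 74.4 TPM in WT. The groups overlapped for Pi4ka, and its part in the Serpind1 values was not tested.

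The protein C system was led by Thbd, thrombomodulin, the endothelial receptor that turns thrombin to activating protein C. Thbd had 12.1 and 8.55 TPM in K823R and 7.13 and 7.77 TPM in WT, without overlap, and its log2 difference was 0.40 (SE 0.18, limma adjusted p = 0.918) and 0.18 without K823R replicate 1. Pros1, protein S, its cofactor and a ligand of phagocyte receptors, had 9.77 and 8.57 TPM in K823R and 8.27 and 8.24 TPM in WT, without overlap. Procr, the endothelial protein C receptor, had 2.39 and 5.10 TPM in K823R and 4.13 and 3.54 TPM in WT. The K823R values of Procr enclosed the WT values, with a difference of -0.09 (SE 0.32). Proc, protein C, averaged 0.595 TPM.

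The 5 Serpina1 copies whose loops are printed above were each between 2.15 and 5.99 TPM on average. Serpina1c, the most abundant, had 6.31 and 7.94 TPM in K823R and 6.30 and 3.39 TPM in WT, so its groups all but touched. Serpina1b had 5.07 and 4.70 TPM in K823R and 4.26 and 4.62 TPM in WT, also without overlap by a narrow gap. The other 3 copies overlapped between groups. Serpina1e had 3.30 and 5.56 TPM in K823R and 3.79 and 3.94 TPM in WT. Serpina1a had 3.52 and 2.34 TPM in K823R and 3.59 and 2.19 TPM in WT. Serpina1d had 1.61 and 2.72 TPM in K823R and 2.55 and 1.71 TPM in WT. Each copy's transcript matches the others over 75.6% to 100% of its length at 95% identity or more. Because reads from the shared stretches were divided by estimation if RSEM gave the values, the sum is the firmer quantity. It was 19.8 and 23.3 TPM in K823R and 20.5 and 15.9 TPM in WT, with overlapping groups and a log2 difference of 0.24 (SE 0.16, limma adjusted p = 0.917). Liver transcripts were present beside it. The 5 liver markers outside the pathway, Alb, Apoa1, Apoa2, Ttr and Ahsg, summed to 86.8 and 88.7 TPM in K823R and 90.1 and 78.3 TPM in WT, and Serpina1 stood at 0.203 to 0.262 of that sum in each library. The part of such transcripts in the Serpina1 values was not tested.

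**Figure D4:**
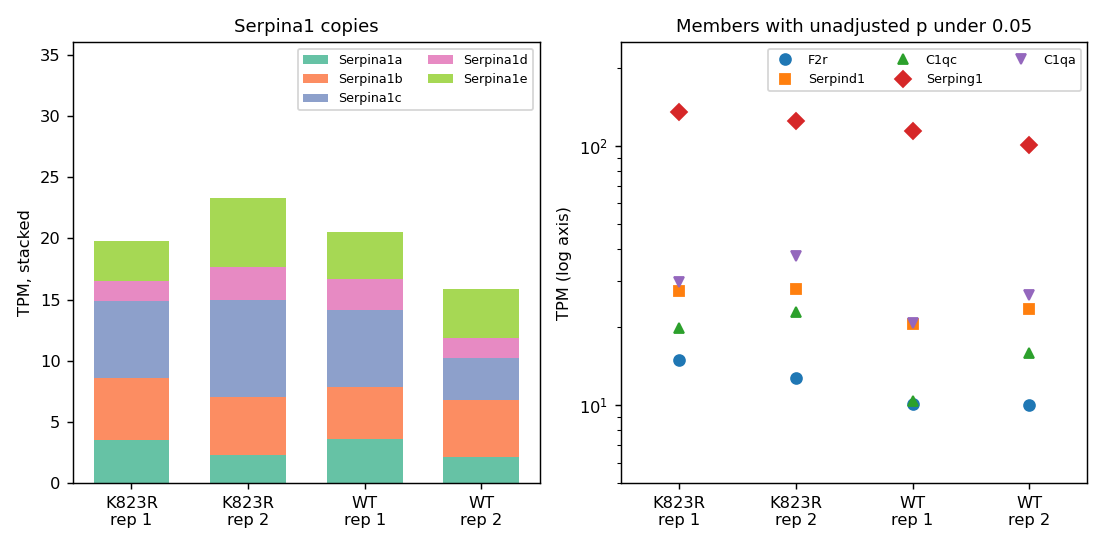
Left, TPM of the 5 Serpina1 copies stacked for each library, with sums of 19.8 and 23.3 in K823R and 20.5 and 15.9 in WT. Right, TPM on a log axis of the 5 members with an unadjusted p under 0.05, for which K823R and WT points do not overlap and of which none passed after adjustment.

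The remaining inhibitors averaged under 6 TPM. A2m, alpha-2-macroglobulin, a broad protease trap, Tfpi, the inhibitor of the tissue factor pathway, and Serpinc1, antithrombin, averaged 5.39, 2.70 and 2.52 TPM. Serpinc1, singled out after its values were seen, had 1.68 and 5.38 TPM in K823R and 1.78 and 1.25 TPM in WT, so K823R replicate 2 alone stood apart.

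The plasminogen activators and their receptor were above the limit and plasminogen was below it. Plat, tissue plasminogen activator, had 16.2 and 16.6 TPM in K823R and 14.6 and 14.0 TPM in WT, without overlap. Plat's log2 difference was 0.19 (SE 0.09), and its 95% interval ran from -0.05 to 0.43 (limma adjusted p = 0.918). Plaur, the urokinase receptor, had 7.03 and 9.59 TPM in K823R and 8.19 and 5.36 TPM in WT, with overlap. Plau, urokinase, had 3.58 and 4.62 TPM in K823R and 3.95 and 3.32 TPM in WT, with overlap. Plg, plasminogen, averaged 0.648 TPM, under the limit.

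Of the receptors that thrombin and bradykinin act on, F2rl2, which encodes PAR3, was the most abundant. F2rl2 had 46.4 and 38.5 TPM in K823R and 45.1 and 31.7 TPM in WT, with replicate 1 the higher in each group and a log2 difference of 0.16 (SE 0.20, limma adjusted p = 0.939). F2r, which encodes PAR1, the main thrombin receptor (chromosome 13, 95601803 to 95618487), had 14.9 and 12.7 TPM in K823R and 10.1 and 10.06 TPM in WT. The groups did not overlap. Its log2 difference of 0.41 (SE 0.12, 95% interval 0.10 to 0.72) had the smallest p of any member (limma unadjusted p = 0.0202, adjusted p = 0.918), and ranged from 0.30 to 0.52 when any 1 library was left out. Bdkrb2, the bradykinin B2 receptor, had 3.29 and 2.52 TPM in K823R and 2.93 and 2.70 TPM in WT, and the K823R values enclosed the WT values. F2rl3, which encodes PAR4, averaged 1.53 TPM, and the inducible bradykinin B1 receptor Bdkrb1 averaged 0.03 TPM.

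Of the 67 pathway rows under the limit, 22 were listed at 0 in all libraries. Such a value can be a failed estimate and is not read as absence. Some genes with roles in these cascades are not annotated to the pathway in the authors' column, and 4 of those listed passed the limit. These 4 are no members, and their values were known when they were singled out. Serpine2, a serpin of glia that inhibits thrombin, had 89.5 and 107 TPM in K823R and 91.3 and 101 TPM in WT. Cr1l, a membrane regulator of rodents also known as Crry, had 26.8 and 26.7 TPM in K823R and 26.5 and 29.9 TPM in WT. Cfp, properdin, which stabilises the alternative pathway's enzyme, had 3.13 and 3.0 TPM in K823R and 1.21 and 1.67 TPM in WT, without overlap (limma unadjusted p = 0.0182, adjusted p = 0.918). Pzp, a relative of A2m, had 2.66 and 1.90 TPM in K823R and 5.65 and 3.35 TPM in WT, also without overlap (limma unadjusted p = 0.0511, adjusted p = 0.918).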

How the data were processed

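Sequencing of mRNA from trigeminal ganglia gave 2 K823R and 2 WT libraries, grouped by title. The authors deposited TPM per gene row, and the library columns sum to between 1000000.2 and 1000001.06. Tools named in the submitters' processing notes, without roles, are fastp 0.19.5, HISAT2, RSEM and edgeR, with the build GRCm38.p6. Neither strand setting nor annotation release is given in the sources used here. Gene lengths in the table and the authors' group means were not used.

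Rows with a mean of at least 1 TPM (15390) were tested with limma 3.58.1 in R 4.3.3 on log2(TPM + 1), K823R minus WT, with a variance trend, two-sided, Benjamini-Hochberg adjusted at 0.05. Limma's variances, and so its SE, intervals and p, are moderated toward a trend over all rows. The prior had a median of 2.67 degrees of freedom, against 2 residual ones from the gene's own values. The log2(TPM + 1) scale understates changes of low genes. An exact permutation test of 2 against 2 libraries cannot give a two-sided p under 0.333, so single genes rest on limma. All 48 members were matched to GENCODE M21 for position. Copies were searched with BLAST 2.17.0 (at least 95% identity over 150 bases). Members, role lists and marker lists were chosen with earlier results of these data known. Per-library values are given for the 3 most abundant members of each role, for unadjusted p under 0.05, for the 6 smallest p in each direction and for copies. Values of 1 member are not reported here, though it enters the counts, sums and medians. Plots used matplotlib 3.10.9. Alternatives were the pseudocount, filter, scaling, variance trend, a replicate block and leaving out each library.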

Additional observations from a re-analysis of the deposited data

How the results depend on the processing

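Under all 13 alternatives 0 members passed the adjusted threshold, and by limma without adjustment 3 to 6 had p under 0.05 (3 after quantile normalization and without a variance trend, when 5.47% and 4.80% of all rows did). Over the alternatives that share of all rows ran from 3.73% to 7.22%. The member median log2 difference, 0.15, was 0.18 and 0.17 with pseudocounts of 0.1 and 0.5 TPM, 0.28 at a mean of at least 5 TPM (23 members), 0.14 after quantile normalization, 0.13 after median-ratio scaling and 0.22 with copies summed, a choice made after the data were seen. It ran from 0.15 to 0.19 when any 1 library was left out. At a mean of at least 5 TPM, where fewer members enter, medians were 0.25 for the lectin list (0.12 otherwise), 0.46 for C2, C3, C4 and the alternative pathway (0.19), 0.40 for anticoagulants (0.23) and 0.28 for protease-activated and bradykinin receptors (0.10). With a pseudocount of 0.1 TPM complement receptors had 1.02 (0.60), and anticoagulants with copies summed 0.33. For the other moves the cause was not tested. The terminal complement and complement receptor lists had no member at a mean of at least 5 TPM and so no value there. The complement receptor list holds 2 members. Of these Itgam passed the 1 TPM limit through its K823R values, so the medians of this list are not independent of the limit. Leaving out each library in turn gave medians of 0.056 to 0.19 for complement regulators, -0.18 to 0.06 for coagulation factors and 0.16 to 0.33 for anticoagulants. It gave 0.15 to 0.71 for C1, 0.024 to 0.22 for the lectin list, 0.39 to 0.82 for complement receptors, 0.036 to 0.28 for fibrinolysis, -0.02 to 0.35 for C2, C3, C4 and the alternative pathway, -0.12 to 0.65 for C8g and -0.05 to 0.25 for protease-activated and bradykinin receptors.

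Of 20 members whose difference is given, 11 kept their sign under all alternatives run and 9 did not. The sign turned when a library was left out for Clu (-0.020 to 0.29), Cd59a (-0.096 to 0.053), F2rl2 (-0.091 to 0.40), F3 (-0.22 to 0.25), Vwf (-0.44 to 0.063), Procr (-0.51 to 0.34), C3 (-0.20 to 0.79), Fgg (-0.26 to 0.13) and F9 (-0.45 to 0.20). F3 was also -0.014 after quantile normalization and -0.0066 after median-ratio scaling. With 1 library left in a group, its spread was taken from the other group. Replicate numbers did not pair the libraries by any label, and same-numbered deviations correlated at r = 0.050 across genes. A replicate block left the member median at 0.15 and 0 members called. With it 6 members had an unadjusted limma p under 0.05, against 5.95% of all rows. TPM keeps no depth, so what counting error limits cannot be stated.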
